A study of Mus musculus with 11 samples.

Results

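Lysosomal proton pump, cathepsin and LAMP transcripts were followed in blood eosinophils of tumour-bearing mice. Members were the protein-coding genes of the deposited count table whose symbols begin with Atp6v, consist of Cts and a single letter, or are Lamp1, Lamp2 or Lamp3. This gave 44 of the 55486 genes in the table, 21884 of which are protein-coding. By role they were 9 genes of the V0 membrane part of the pump, 13 of its V1 catalytic part, 18 cathepsins and 3 LAMP genes. The remaining member, Atp6v1fnb, was taken in by its name alone and had 4 counts, all in treated 7.

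RNA was sequenced with Smart-seq2, a full-length protocol for small RNA amounts, from eosinophils sorted out of heart blood of FVB/N mice on day 21 after treatment began. The 7 treated mice had cisplatin, which crosslinks DNA, with antibodies against PD1 and CTLA4, checkpoint receptors of T cells, and 4 control mice had control antibody alone. All 11 mice had metastatic disease from mammary tumours, and each gave 1 library, so p-values measure the spread between mice. Sorting kept live cells of high side scatter that were CD45+, CD11b+ and F4/80+, low in Ly6g and CD3-, markers that other blood myeloid cells partly share.

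The lysosome is acidified by the V-ATPase, a rotary proton pump in which V1 splits ATP in the cytosol and V0 carries protons through the membrane. Cathepsins are proteases that mostly work in this acid space: cathepsins D and E are aspartic proteases, A and G are serine proteases and the others are cysteine proteases. LAMP1 and LAMP2 are the heavily glycosylated proteins that line the lysosomal membrane. Eosinophil granules are related to lysosomes and carry lysosomal membrane proteins, and cathepsins are also abundant in monocytes and macrophages. Many lysosomal genes carry the E-box CACGTG, or longer forms of it, near their start, which the transcription factor TFEB binds.

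The promoters of these genes were read for that motif, because it is the known shared feature of lysosomal genes. The sequence table, from RefSeq on GRCm38.p6, held 34 of the 44 members; gene coordinates below are on GRCm38 as well. In the 250 bases before a listed start, CACGTG stood in 7 of these 34 (20.6%), against 1854 of 27025 genes in the table (6.86%). Of the 21 that were abundant enough to test, 7 held it (33.3%), against 876 of 8641 tested genes (10.1%). The motif reads the same on both strands. The longer TCACGTGA, which contains it, was found in Atp6v1a, Ctsa and Ctsd, 3 of 34 (8.82%), against 245 of 27025 genes (0.907%). The complete palindrome of the lysosomal CLEAR element, which adds a G before and a C after that form, was in 0 of the 34 member windows and in 73 of the 27025 (0.270%). Windows of Ctsd, Ctsa and Atp6v1a are shown because they hold this TCACGTGA form, and those of Lamp1 and Atp6v0b because they hold more than 1 E-box; capitals mark CACGTG, each is given on the strand of its gene, and the match is a description of letters, not of binding.
Lamp1: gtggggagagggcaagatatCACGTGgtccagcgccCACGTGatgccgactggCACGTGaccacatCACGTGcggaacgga
Ctsd: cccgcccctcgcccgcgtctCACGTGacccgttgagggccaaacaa
Ctsa: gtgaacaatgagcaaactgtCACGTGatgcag
Atp6v1a: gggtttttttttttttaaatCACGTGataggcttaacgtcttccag
Atp6v0b: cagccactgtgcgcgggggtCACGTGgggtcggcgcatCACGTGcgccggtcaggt

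The Lamp1 window lies at chr8:13159080-13159160 on the plus strand, holds 4 E-boxes between 61 and 15 bases before the start, and overlaps no annotated exon in GENCODE M21. The Ctsd window at chr7:142387900-142387945, minus strand, begins its E-box 98 bases before the RefSeq start and falls in an exon of a longer Ctsd model; another Ctsd E-box, without the longer form and not shown, lies 245 bases before the start at chr7:142388047-142388077. That of Ctsa, chr2:164833741-164833772 on the plus strand, belongs to the downstream of its 2 listed starts, 12 bases away, and is also exonic. Atp6v1a, chr16:44139365-44139410 on the minus strand, has its E-box 131 bases before the start, in an intron of a longer model. Atp6v0b, chr4:117887330-117887385 on the minus strand, has E-boxes at 36 and 18 bases, and its window reaches the annotated first exon. The other members with the motif were Ctsf and Ctsl.

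The deposited counts summed to 5356118 to 8016658 per treated library and 3733156 to 6721060 per control library. Haemoglobin genes took 1.16% to 4.42% of counts in treated libraries and 1.06%, 0.165%, 28.2% (95% Wilson interval 28.1 to 28.2) and 20.1% (20.1 to 20.2) in control 1 to control 4; such intervals, and the floors of 3 counts used below, cover counting error only. Genes with at least 1 count numbered 10775 in control 3 and 11263 in control 4, below the 12639 or more of each other library. All 15 eosinophil markers were detected, with summed levels of 5633 to 13181 counts per 1000000 counts (CPM) of the library total in treated mice. The sums were 14147, 12440, 5990 and 6013 CPM in control 1 to control 4, and these totals include haemoglobin counts. All 18 monocyte and macrophage markers were detected too, at 2211 to 17079 CPM (median 8242) in treated libraries and at 2151, 997, 13065 and 2925 CPM in control 1 to control 4. Identifiers in the table header begin with 19 for treated and 20 for control libraries, and what the digits mean is not stated; a processing date or batch behind them would coincide with the treatment, so the pair cannot be told apart.

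The comparison asks how the combination altered transcript levels in blood eosinophils relative to control antibody. No member passed the test between groups. Counts were tested with edgeR's quasi-likelihood test with Benjamini-Hochberg adjustment over 11389 genes at 0.05, of which 0% (0 genes) were called. Of the 44 members, 30 were abundant enough to be tested and 10 had 0 counts in every library. Fold changes are log2 of treated over control after TMM scaling: 14 members were above 0 and 16 below, with a median of -0.02, against 0.03 over all tested genes (5900 above 0 and 5489 below). An unadjusted p under 0.05 was reached by 1 of the 30, Atp6v1f, against 6.82% of all tested genes. Values of treated and control libraries overlapped in every tested member, where 0.94% of all tested genes (107) had groups that did not overlap. DESeq2, which called 0.378% of 21666 genes, also called no member.

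**Figure D1:**
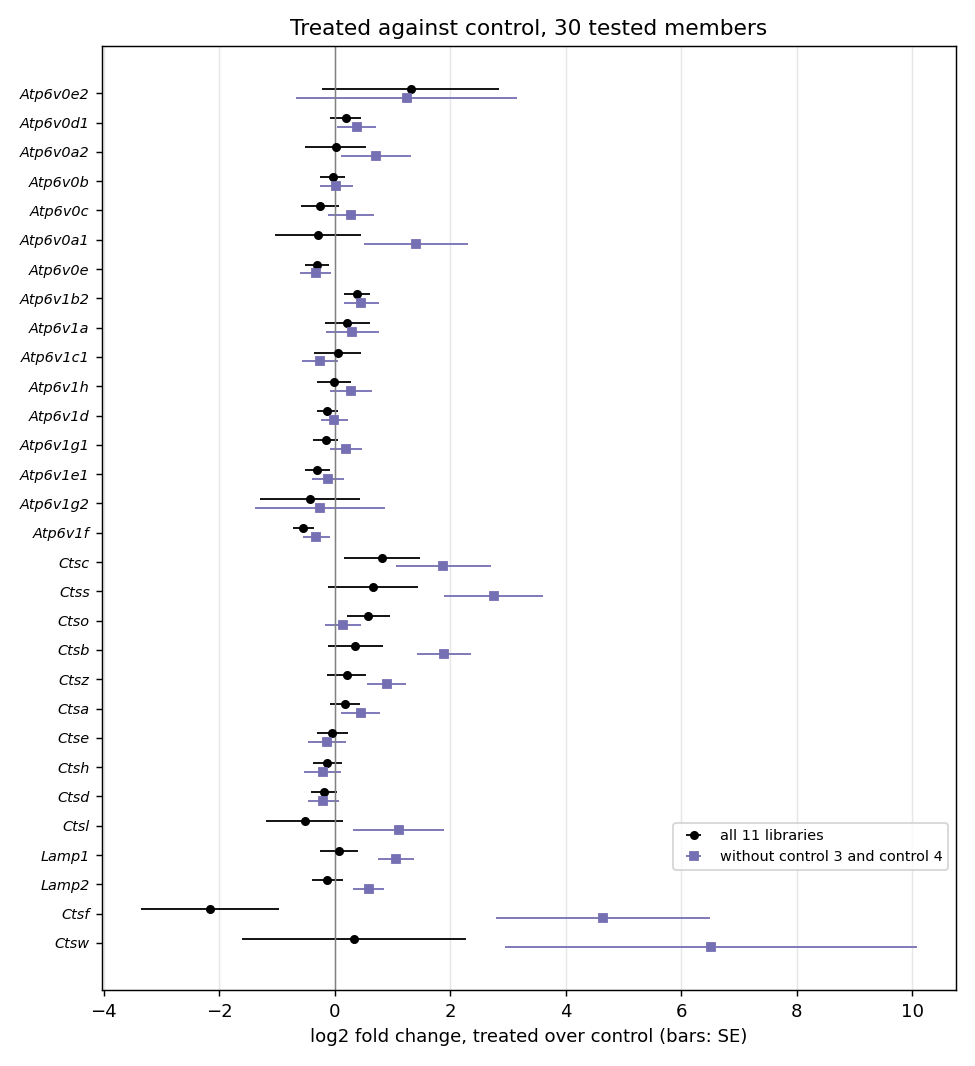
Log2 fold change, treated over control (horizontal axis), of the 30 tested members, from all 11 libraries (black circles) and without control 3 and control 4 (purple squares); bars are standard errors. Most pump subunits lie near 0 in both, while Ctsb, Ctss, Ctsc, Ctsz and Lamp1 lie farther right without these 2 control libraries.

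As a share of all counts, the members' transcripts were 0.963% to 1.70% of counts in treated libraries and 0.786% to 0.954% in control libraries, so that the groups did not overlap. With haemoglobin counts left out of the total, the range was 0.992% to 1.73% in treated and 0.935% to 1.27% in control libraries, and the groups overlapped. The highest share came from treated 6, which also had the highest summed monocyte and macrophage markers.

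The membrane part of the pump was expressed mainly through 3 of its genes, Atp6v0b, Atp6v0d1 and Atp6v0e, and none of its genes passed the test. Of 9 V0 genes 7 were tested, 3 above and 4 below 0, with a median of -0.04. Summed TMM-scaled levels were 1013 ± 159 CPM across treated mice (SD, n = 7) against 1076 ± 125 CPM across control mice (SD, n = 4); levels given as ± below carry SD over the same numbers of mice. Atp6v0b, a subunit of the rotating proteolipid ring, lay between 261 and 417 CPM in treated libraries (median 356) and at 269, 442, 307 and 424 CPM in control 1 to control 4. Both groups spanned nearly the same range, and the fold change was -0.04 ± 0.220 (SE; edgeR adjusted p = 0.989). Atp6v0e, a small membrane subunit, had 227 to 416 CPM in treated libraries (median 342) and 364, 494, 395 and 380.2 CPM in control libraries. Its treated values reached lower, with a fold change of -0.30 ± 0.206 (SE; edgeR adjusted p = 0.855).

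Isoforms of the membrane subunits stood at unequal levels, compared as mean TMM-scaled CPM per kilobase of exon over all libraries. For subunit a, which carries the proton path and sets where the pump is placed, Atp6v0a2 had 7.44 and Atp6v0a1 2.26, while Atp6v0a4, the kidney form, had 0 counts in all libraries. Tcirg1, which encodes isoform a3 and does not carry the Atp6v name, stood above them at 28.9. Subunit d, which links the ring to the stalk, came from Atp6v0d1 at 124, whereas the osteoclast form Atp6v0d2 had 0 counts throughout. Atp6v0e at 96.8 likewise exceeded Atp6v0e2 at 1.49. Atp6v0c, the main proteolipid of the ring, was measured at only 8.97, a value that the pseudogenes Atp6v0c-ps1 and Atp6v0c-ps2 in the same table make uncertain.

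The catalytic part held the member with the smallest p-value. Of 13 V1 genes 9 were tested, 3 above and 6 below 0, with a median of -0.13. Their summed level was 1274 ± 169.6 CPM across treated mice (SD, n = 7) against 1347 ± 123 CPM across control mice (SD, n = 4). Atp6v1f, a subunit of the central rotor stalk at chr6:29467718-29470512 on the plus strand, had 197 to 265 CPM in treated libraries (median 243) and 260.4, 342, 389 and 379 CPM in control 1 to control 4. Only treated 2 (265 CPM) lay above control 1, the lowest control. It averaged 235 ± 26.3 CPM over treated and 342 ± 58.4 CPM over control libraries (SD, n = 7 and 4), a fold change of -0.54 ± 0.185 (SE; edgeR adjusted p = 0.626; DESeq2 adjusted p = 0.0967). Atp6v1f is also among the shortest members, with 1063 bases of exon, and fold changes of the whole table leaned with length (Spearman rho 0.179 over 11380 genes and 0.274 over the 16 tested pump subunits, given as a description). With an offset for length and GC content its fold change was -0.26 ± 0.170 (SE; edgeR adjusted p = 0.924).

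Atp6v1b2, the B subunit of the ATP-splitting head, had 194 to 450.4 CPM in treated libraries (median 360.3), and 271, 264, 288 and 276 CPM in control 1 to control 4. The controls were close together, and 6 of 7 treated libraries lay above all of them while treated 3 lay below. The fold change was 0.39 ± 0.223 (SE; edgeR adjusted p = 0.804). Within each library the ratio of Atp6v1f to Atp6v1b2 was 0.482 to 1.30 in treated and 0.960 to 1.37 in control libraries. The other 7 tested V1 genes had fold changes between -0.43 for Atp6v1g2 and 0.21 for Atp6v1a, with adjusted p of 0.864 or more by edgeR.

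Among V1 isoforms the widely expressed form was again the higher. Atp6v1b2 had 62.0 CPM per kilobase, and the kidney form Atp6v1b1 had 0 counts in all libraries. For subunit C, which helps hold the stator, Atp6v1c1 had 15.2, and Atp6v1c2 had 2 counts in all, in control 2. For the stator subunits E and G, Atp6v1e1 stood at 41.3 with 0 counts for Atp6v1e2, and Atp6v1g1 at 117 with 3.15 for Atp6v1g2 and 0 counts for Atp6v1g3. A count of 0 allows a level up to the floor of 3 counts, which was 0.374 to 0.804 CPM depending on the library.

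**Figure D2:**
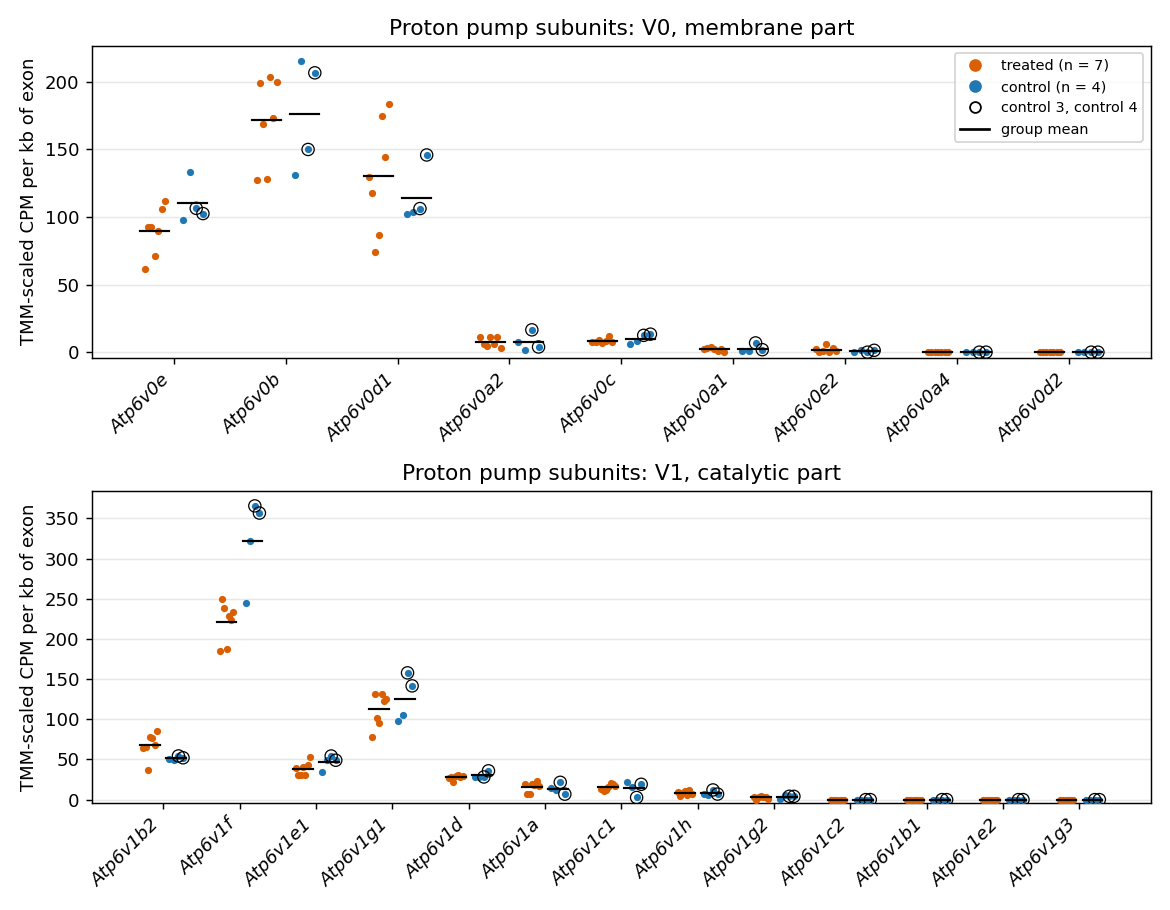
TMM-scaled CPM per kilobase of exon (vertical axis, linear) of the V0 (upper) and V1 (lower) genes in each library; dots are libraries (treated orange, left; control blue, right; control 3 and control 4 ringed), bars are group means. Atp6v0b, Atp6v0d1, Atp6v0e, Atp6v1f and Atp6v1g1 stand highest per kilobase, and 5 isoforms with 0 counts in all libraries lie on the axis.

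No cathepsin passed the test, and the spread between mice was wide. Of 18 genes 12 were tested, 7 above and 5 below 0, with a median of 0.19. Summed levels were 8018 ± 2013 CPM across treated mice (SD, n = 7) against 7054 ± 1971 CPM across control mice (SD, n = 4). Per kilobase of exon the order over all libraries was Ctss 731, Ctse 511, Ctsd 327, Ctsz 310.4, Ctsa 290.2, Ctsb 221, Ctsh 136, Ctsc 63.8 and Ctso 23.1 CPM, with Ctsl, Ctsf and Ctsw at 3.26 or less. Since Ctss alone ranged over 40.8-fold between libraries, neighbours in this order do not stand apart beyond their spread.

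Cathepsins E, A and D varied up to 2.54-fold between libraries. Ctse, an endosomal aspartic protease at chr1:131638306-131675505, had 1045 to 2223 CPM in treated libraries (median 1742) and 1756, 1841, 1164 and 1843 CPM in control 1 to control 4. The lowest values came from treated 3, treated 6, treated 4 and control 3, and the fold change was -0.04 ± 0.267 (SE; edgeR adjusted p = 0.989). Ctsa, a serine carboxypeptidase that also protects lysosomal neuraminidase and beta-galactosidase, had 700.0 to 1777 CPM in treated libraries (median 1519) and 921, 1222, 1363 and 1565 CPM in control libraries. Its fold change was 0.17 ± 0.259 (SE; edgeR adjusted p = 0.950), and 495 of its exon bases overlap Pltp on the other strand. Ctsd, the main lysosomal aspartic protease, averaged 733 ± 172 CPM across treated mice (SD, n = 7) against 832 ± 184 CPM across control mice (SD, n = 4), with a fold change of -0.18 ± 0.227 (SE; edgeR adjusted p = 0.940). Ctsg, the serine protease of neutrophil granules, had 59 counts in control 1 and 0 in every other library. The neutrophil granule genes Elane and Mpo were likewise found in control 1 alone. Other neutrophil genes were not confined to it: Prtn3 had counts in 8 libraries, Ltf in 9 and Ngp in 11.

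Ctss, Ctsc and Ctsb had a wider spread between libraries, 40.8-fold, 21.0-fold and 7.54-fold, while Ctsz had 3.15-fold. Ctss, the cysteine protease that trims the MHC class II invariant chain, lay at chr3:95526786-95556403 on the plus strand. It had 330.3 to 2988 CPM in treated libraries (median 717) and 278, 73.3, 2004 and 541 CPM in control 1 to control 4. Treated 6 was highest, followed by control 3, while control 2 was lowest, and the fold change was 0.66 ± 0.777 (SE; edgeR adjusted p = 0.937). Ctsb, a broad lysosomal cysteine protease at chr14:63122462-63145923, had 814 to 2738 CPM in treated libraries (median 1118) and 439, 363, 2308 and 1423 CPM in control libraries. The controls lay on both sides of most treated values, with a fold change of 0.36 ± 0.475 (SE; edgeR adjusted p = 0.940), and 774 exon bases of Ctsb overlap Fdft1 on the other strand.

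Ctsc, the dipeptidyl peptidase that activates granule serine proteases, had 115 to 1209 CPM in treated libraries (median 308) and 188, 57.4, 599.8 and 153 CPM in control 1 to control 4. Its fold change was 0.82 ± 0.656 (SE; edgeR adjusted p = 0.892). Ctsz, a carboxypeptidase, had 339.7 to 772 CPM in treated libraries (median 433) and 262, 257, 807 and 302 CPM in control libraries. All treated values lay above control 1, control 2 and control 4 and below control 3, and the fold change was 0.21 ± 0.337 (SE; edgeR adjusted p = 0.951). In all 4 genes treated 6 had the highest treated value and treated 7 the lowest.

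**Figure D3:**
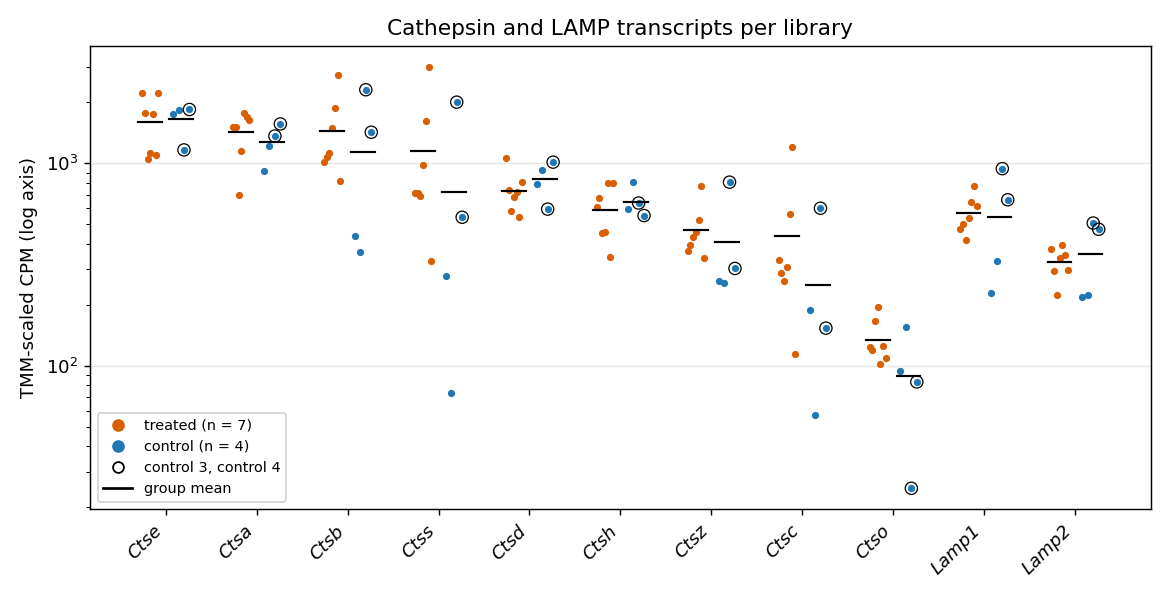
TMM-scaled CPM (vertical axis, log scale) of the more abundant cathepsins and of Lamp1 and Lamp2 in each library; dots are libraries (treated orange, left; control blue, right; control 3 and control 4 ringed), bars are group means. Ctsb, Ctss, Ctsz, Ctsc and Lamp1 have control 1 and control 2 at or near the bottom and control 3 near the top, which Ctse, Ctsd and Ctsh do not.

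Of the other cathepsins, Ctsh, an aminopeptidase, averaged 590.1 ± 178 CPM across treated mice (SD, n = 7) against 647 ± 112 CPM across control mice (SD, n = 4), with a fold change of -0.13 ± 0.251 (SE; edgeR adjusted p = 0.955). Ctso, a cysteine protease, had 102 to 196 CPM in treated libraries (median 124) and 94.2, 156, 24.8 and 83.2 CPM in control 1 to control 4. Its mean was 135 ± 33.8 CPM in treated mice, against 89.5 ± 53.7 CPM in control mice, a fold change of 0.58 ± 0.370 (SE; edgeR adjusted p = 0.830). Ctsf, another cysteine protease, had 1.42 to 12.2 CPM in treated libraries (median 3.84) and 0.380, 0, 74.9 and 17.8 CPM in control libraries. Its high control mean came from control 3 and control 4, the libraries with much haemoglobin, and the fold change was -2.16 ± 1.19 (SE; edgeR adjusted p = 0.787). Ctsl, a broad lysosomal cysteine protease, averaged 18.2 ± 13.3 CPM in treated mice, against 26.3 ± 27.3 CPM in control mice, and 1742 of its exon bases overlap Gm47123, an antisense gene. Ctsw, known from cytotoxic lymphocytes, had counts in 3 treated libraries and in control 4, at 5.19 CPM or less. Ctsk, the osteoclast cathepsin, had 6 counts in treated 1 and 24 in treated 6, and Ctsj, Ctsm, Ctsq and Ctsr, known from mouse placenta, had 0 counts in all libraries.

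LAMP transcripts came from Lamp1 and Lamp2. Lamp1, at chr8:13159161-13175338, had 416 to 776 CPM in treated libraries (median 536) and 229, 331, 941 and 661 CPM in control 1 to control 4. All treated libraries lay above control 1 and control 2, and 6 of 7 below control 3 and control 4, with means of 566 ± 121 CPM across treated mice (SD, n = 7) against 540.2 ± 324 CPM across control mice (SD, n = 4) and a fold change of 0.07 ± 0.330 (SE; edgeR adjusted p = 0.988). Lamp2, on chromosome X, had 224 to 396 CPM in treated libraries (median 339) and 219.5, 223, 507 and 472 CPM in control libraries. Here too control 1 and control 2 were at the lower end and control 3 and control 4 above every treated library, with a fold change of -0.13 ± 0.268 (SE; edgeR adjusted p = 0.964). Lamp3, known from mature dendritic cells, had 0 counts in all libraries. Per kilobase Lamp1 stood at 208 and Lamp2 at 35.2 CPM, where that of Lamp2 was divided by a long exon total of 9552 bases.

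The fold changes of cathepsins B, C, S and Z and of the LAMP genes depended on single libraries, most of all on control 3. Without control 3 alone they were 1.01 for Ctsb, 1.99 for Ctss, 1.75 for Ctsc, 0.81 for Ctsz, 0.52 for Lamp1 and 0.13 for Lamp2. Without control 4 alone they were 0.51 for Ctsb, 0.57 for Ctss, 0.66 for Ctsc, 0.11 for Ctsz, 0.20 for Lamp1 and 0.06 for Lamp2. Leaving out treated 6 gave 0.12 for Ctsb, 0.20 for Ctss, 0.31 for Ctsc, 0.04 for Ctsz, -0.03 for Lamp1 and -0.15 for Lamp2. Without control 1 the values were 0.09 for Ctsb, 0.40 for Ctss, 0.05 for Ctsz, -0.18 for Lamp1 and -0.30 for Lamp2. Ctsc moved little there, at 0.71 against 0.82 over all libraries. Without control 2 the values were 0.07 for Ctsb, 0.29 for Ctss, 0.49 for Ctsc, 0.05 for Ctsz, -0.10 for Lamp1 and -0.29 for Lamp2. Without both control 3 and control 4, fold changes by edgeR were 1.90 ± 0.470 for Ctsb (SE; adjusted p = 0.184), 2.75 ± 0.862 for Ctss (SE; adjusted p = 0.378) and 1.88 ± 0.818 for Ctsc (SE; adjusted p = 0.572). Lamp1 was at 1.06 ± 0.307 (SE; edgeR adjusted p = 0.296), Ctsz at 0.90 ± 0.337 (SE; edgeR adjusted p = 0.473) and Lamp2, below 0 over all libraries, at 0.59 ± 0.270 (SE; edgeR adjusted p = 0.581). Ctsf, also below 0 over all libraries and with 0.380 and 0 CPM in the controls left, made up the 7 of 30 members with an unadjusted p under 0.05, all higher in treated libraries, against 6.41% of 13012 genes in that fit (834 higher). No gene was called there by edgeR, with 1115 at an unadjusted p under 0.05. Of the controls that remain, control 2 and control 1 had the lowest monocyte and macrophage marker sums of all libraries. Control 3 and control 4 had the highest sums of 12 platelet markers, 8188 and 7221 CPM, against 983 to 3655 CPM in treated libraries and 489 and 301 CPM in control 1 and control 2. The part of either cell type in the difference was not tested.

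Within the treated group, cathepsins B and Z ranked with the marker sum, of which Lyz2 alone made up 43.3% to 69.2% in treated and 34.9% to 75.2% in control libraries. Across the 7 treated libraries the summed monocyte and macrophage level and Ctsz had a Pearson r of 0.875 (exact permutation p = 0.0127, adjusted p = 0.0720 over 16 members) and a Spearman rho of 0.893 (exact permutation p = 0.0123, adjusted p = 0.0492). Without treated 6 and treated 7, the libraries farthest from the median, r was 0.800. Ctsb had r = 0.863 (exact permutation p = 0.0129, adjusted p = 0.0720) and rho = 0.893 (exact permutation p = 0.0123, adjusted p = 0.0492), with r = 0.603 without the same libraries. For Ctss r was 0.889 (exact permutation p = 0.0135, adjusted p = 0.0720) but rho 0.607 (exact permutation p = 0.167, adjusted p = 0.444), and for Ctsc r was 0.869 (exact permutation p = 0.0212, adjusted p = 0.0838) and rho 0.536 (exact permutation p = 0.236, adjusted p = 0.539). Without treated 6 and treated 7 these were r = 0.461 for Ctss and 0.189 for Ctsc, so both rest on those libraries. Of the 16 members in the adjustment, 8 were named after their values were seen, among them Ctsb, Ctsz, Ctss, Ctsc, Ctsd and Ctsh. The adjusted p-values therefore do not cover all 30 tested members.

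Ctse, Ctsd and Ctsh ran the other way. Ctse had r = -0.804 (exact permutation p = 0.0262, adjusted p = 0.0838) and rho = -0.929 (exact permutation p = 0.00675, adjusted p = 0.0492), with r = -0.772 without treated 6 and treated 7. Ctsd had r = -0.702 (exact permutation p = 0.0772, adjusted p = 0.176) and rho = -0.929 (exact permutation p = 0.00675, adjusted p = 0.0492), with r = -0.811 without them. Ctsh, a cysteine protease, had r = -0.747 (exact permutation p = 0.05, adjusted p = 0.133) and rho = -0.607 (exact permutation p = 0.167, adjusted p = 0.444), with r = -0.313 without them. With Lyz2 left out, an alternative added after these values were seen, no relation had an adjusted p under 0.05. The sum of the other 17 markers then had a rho of 0.821 with both Ctsb and Ctsz (exact permutation p = 0.0341, adjusted p = 0.137), -0.929 with Ctse (exact permutation p = 0.00675, adjusted p = 0.0984) and -0.893 with Ctsd (exact permutation p = 0.0123, adjusted p = 0.0984). Pearson's r was 0.703 for Ctsb, 0.752 for Ctsz, -0.853 for Ctse and -0.707 for Ctsd (adjusted p = 0.177 each by exact permutation), and without treated 6 and treated 7 it was 0.153, 0.409, -0.786 and -0.706 in the same order, so that the relation of Ctsb rests on those libraries. Marker sums are CPM of the library total and member levels are TMM-scaled CPM of the same libraries, so the relations are not independent of each other. The ratio of Ctss to Ctse was 0.149 to 2.72 in treated libraries, highest in treated 6 and lowest in treated 7, and 0.0398 to 1.72 in control libraries, highest in control 3 and lowest in control 2. Lamp1 and the named pump subunits had r between -0.374 and 0.236, none below an exact permutation p of 0.377. With the level of all 18 markers as a covariate, edgeR fold changes between groups were -0.20 ± 0.291 for Ctsb, -0.09 ± 0.305 for Ctss, -0.12 ± 0.326 for Ctsc and -0.19 ± 0.208 for Ctsz (SE). Not every cathepsin moved down: Ctso went from 0.58 without the covariate to 1.25 with it (edgeR adjusted p = 0.416), and Ctse from -0.04 to 0.27. Other marker sums varied too, with B cell markers at 1455 to 9134 CPM and neutrophil markers at 5826 to 14059 CPM in treated libraries. The neutrophil sum was mostly Retnlg, which had 4517 to 13695 TMM-scaled CPM in treated libraries, against 6.77 to 382 for S100a8. Treated 7 had the highest neutrophil sum and the highest treated Retnlg, but only 15.9 TMM-scaled CPM of S100a8. B cell sums were highest in treated 4 (9134 CPM), treated 3 (8846) and treated 6 (4216), the treated libraries with the lowest Ctse. Treated 2 was close to treated 6 at 3996 CPM, with Ctse at 1770 CPM. Among controls the order was not the same: control 3 had the lowest Ctse, 1164 CPM, and the lowest B cell sum, 542 CPM. Relations of members to these sums were not tested. In bulk libraries, fewer cells of a type and less RNA per cell cannot be told apart.

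**Figure D4:**
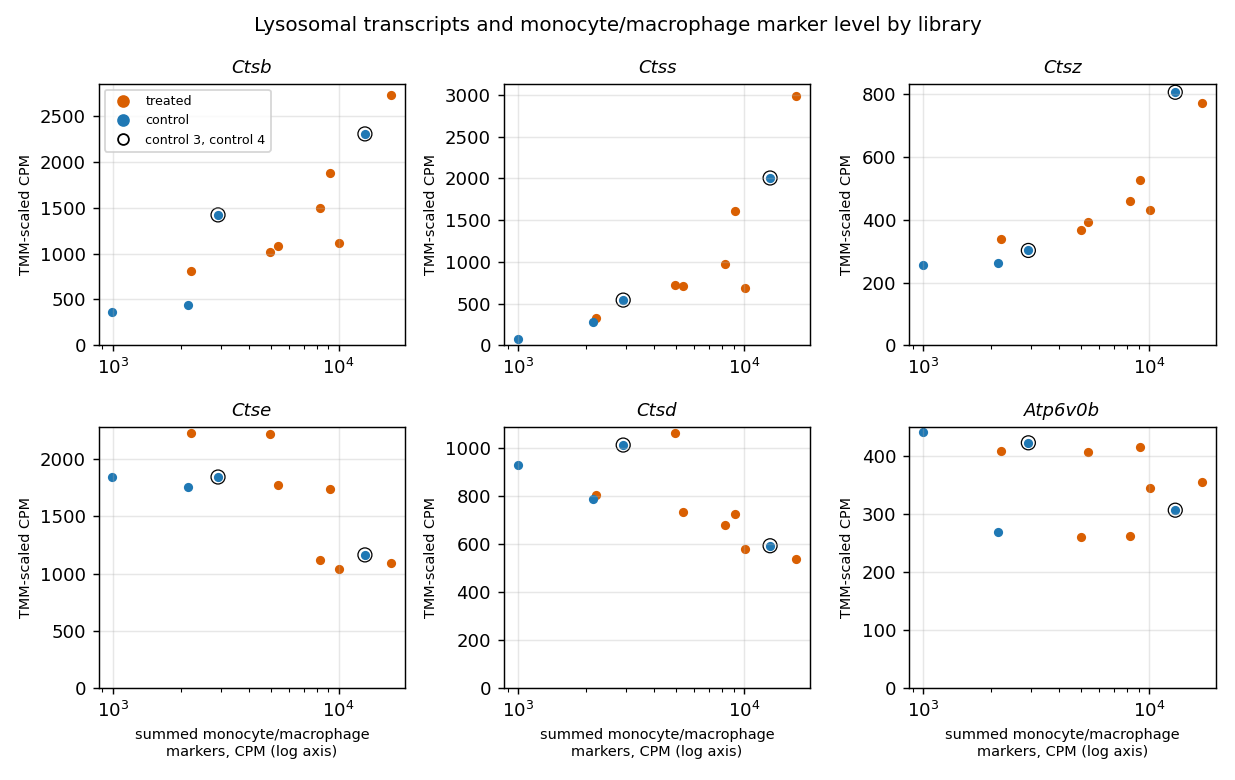
TMM-scaled CPM (vertical axis, linear) of 6 members against the summed CPM of 18 monocyte and macrophage markers (horizontal axis, log scale); each dot is a library, with control 3 and control 4 ringed. Ctsb, Ctss and Ctsz are highest in treated 6 and control 3, the libraries with the highest marker sums, Ctse and Ctsd are low there, and Atp6v0b has no such order.

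The rest of the lysosomal machinery had no called gene in any of 9 lists. Of the other pump subunits, Tcirg1, Atp6ap1 and Atp6ap2 were all tested, with 2 above 0 and a median of 0.05. Tcirg1 had a fold change of -0.10 ± 0.322 (SE). Atp6ap1, an accessory subunit, averaged 873 ± 209 CPM in treated mice, against 841 ± 96.0 CPM in control mice. Of the pump assembly factors 10 were tested, 5 above and 5 below 0, with a median of -0.04. Rogdi, of the complex that rejoins V1 to V0, had a fold change of -0.11 ± 0.232 and Ccdc115, an assembly factor of V0, -0.45 ± 0.288 (SE). Oxr1, whose TLDc domain binds V1, averaged 52.5 ± 19.9 CPM in treated mice, against 16.4 ± 16.8 CPM in control mice (fold change 1.67 ± 0.717, SE; edgeR adjusted p = 0.693).

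Most of the hydrolases tested lay above 0. Over all tested genes the share above 0 was 51.8% and the median 0.03, and no list was tested as a set against these. Of 25 glycosidases and sulfatases 18 were above and 7 below 0, with a median of 0.25. Man2b1, the lysosomal alpha-mannosidase, averaged 3284 ± 1200.5 CPM in treated mice, against 2746 ± 922 CPM in control mice (edgeR adjusted p = 0.939), and Hexa, a subunit of beta-hexosaminidase, 237 ± 24.1 CPM in treated mice, against 224 ± 44.2 CPM in control mice. Hyal2, a hyaluronidase, was detected in 7 of 7 treated libraries with 408 counts, of which treated 5 had only 1, and had 0 counts in all controls. Its treated mean was at least 61.3-fold higher than a floor of 3 counts over the control group (edgeR adjusted p = 0.626). Its groups did not overlap, as in 0.94% of all tested genes. Of 13 tested lipid, phosphatase and nuclease hydrolases 7 were above and 6 below 0, with a median of 0.18. Among them Gm2a, the activator of GM2 breakdown, had a fold change of 0.23 ± 0.342, Psap, the precursor of the saposins, -0.83 ± 0.688, and Pla2g15, a phospholipase, 0.76 ± 0.347 (SE; edgeR adjusted p = 0.721 for Pla2g15). Of 8 other lysosomal peptidases 5 were above and 3 below 0, with a median of 0.13 and with Napsa, an aspartic protease, at 0.25 ± 0.205 and Lgmn, which cuts after asparagine, at 0.10 ± 0.465 (SE).

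Of 24 tested lysosomal membrane genes 18 were above and 6 below 0, with a median of 0.32. Cd68 of this list is also a monocyte and macrophage marker. Laptm5, a lysosomal transmembrane protein of blood cells, averaged 1063 ± 196 CPM in treated mice, against 916 ± 232 CPM in control mice, and Cd63, a tetraspanin, 479 ± 132 CPM in treated mice, against 589 ± 161 CPM in control mice. Slc15a3, a peptide and histidine transporter, had 210 counts in 5 of 7 treated libraries and 0 in all controls, at least 32.8-fold above the same floor (edgeR adjusted p = 0.626). Slc36a1, an amino acid transporter, had a fold change of 1.94 ± 0.836 (SE; edgeR adjusted p = 0.693).

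Of 14 genes of mannose phosphate sorting, which delivers hydrolases to lysosomes, 8 were above and 6 below 0, with a median of 0.08. M6pr, a receptor of this route, had a fold change of -0.08 ± 0.216 and Vps29 of the retromer -0.25 ± 0.238 (SE). Gga2, an adaptor at the trans-Golgi, averaged 48.8 ± 21.5 CPM in treated mice, against 11.5 ± 13.8 CPM in control mice (fold change 2.06 ± 0.706, SE; edgeR adjusted p = 0.626). Gnptab, which makes the tag, had a fold change of 1.18 ± 0.488 (SE; edgeR adjusted p = 0.671). Of 17 TFEB and mTORC1 genes 6 were above and 11 below 0, with a median of -0.19. Rheb, the activator of mTORC1, stood at 0.13 ± 0.186 and Lamtor5, a subunit of its lysosomal anchor, at -0.59 ± 0.225 (SE; edgeR adjusted p = 0.626 for Lamtor5).

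All 6 tested cathepsin inhibitors were below 0, with a median of -0.57 and no unadjusted p under 0.05. Cst3, cystatin C, averaged 1529 ± 498 CPM across treated mice (SD, n = 7) against 1611 ± 432 CPM across control mice (SD, n = 4), and Serpinb1a, a serpin that blocks granule serine proteases, had a fold change of -0.02 ± 0.353 (SE; edgeR adjusted p = 0.997).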

How the data were processed

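RNA was measured in 11 libraries of sorted mouse blood eosinophils. The values the authors deposited are whole-number read counts, not normalized, 1 row per Ensembl identifier. Tools named in the submitters' processing notes are HISAT2 2.10, bcl2fastq 2.20.0.422 and SAMtools 1.15.1, with build GRCm38. Which counter, strand setting and annotation were used is not given in the sources used here. Reads of overlapping genes, antisense genes and pseudogenes may therefore be shared. Of the 55486 genes, 55140 matched GENCODE M21, and 1 row that names no gene held 0 counts.

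Treatment labels set the groups. The test was edgeR 4.0.16 under R 4.3.3 (quasi-likelihood, robust, TMM, filterByExpr, Benjamini-Hochberg at 0.05, 11389 genes). DESeq2 1.42.0, limma-voom 3.58.1, other scalings, filters, covariates, a replicate block and leaving out libraries were alternatives. Correlations used exact permutation in scipy 1.17.1 with Python 3.11.15. The scripts were tested on simulated data. Levels per kilobase divide by the union of annotated exons. Marker sums are CPM of the library total. No 2 libraries were duplicates (chi-square per gene 59.2 or more).

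Members and gene lists were chosen with earlier results of these data known. Values in every library were due for the 2 most abundant members of each role, members with an unadjusted p under 0.05 and the LAMP genes; the other lists name their 2 most abundant genes and up to 3 with the smallest p. Ctsb, Ctsc, Ctss, Ctsz, Ctsd, Ctsh, Ctsf and Ctso were added after their values were seen, as were a monocyte marker covariate, a length and GC offset and a marker sum without Lyz2.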

Additional observations from a re-analysis of the deposited data

Results flagged for a closer look

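Among the named members, 32 groups of libraries were searched for a library far from the rest of its group, and 3 were found, where chance gives about 1 in 20. Atp6v1b2 had 194 CPM in treated 3, far below the other treated libraries. Ctse had 1164 CPM in control 3, below the 3 other controls, and Ctsz had 807 CPM in control 3, above them. Control 3 was the library with 28.2% haemoglobin counts and the highest monocyte and macrophage marker sum of the controls, 13065 CPM; the part of either in these values was not tested.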

How the results depend on the processing

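The count of genes called was 0 with edgeR and 82 with DESeq2. No member was called under any alternative, the smallest adjusted p of a named member being 0.0967. Members with an unadjusted p under 0.05 by edgeR numbered 1 of 30 in the main fit, against 777 of all 11389 tested genes. With no filter the counts were 3 of 34 members and 2146 of 21666 genes. With detected genes as a covariate they were 3 of 30 and 551 of 11389. Without control 3 and control 4 they were 7 of 30 and 1115 of 13012. The monocyte marker level as a covariate gave 2 of 30 and 1121 of 11389. The length and GC offset gave 0 of 30 and 693 of 11380. Leaving out 1 library gave 1 to 5 members. Without control 3 there were 5 (4 of them higher: Ctsb, Ctsc, Ctss and Ctsz), against 881 of 12019 genes. Without control 2 there were 3, against 855 of 11963 genes. Without control 1 there were 2, against 1343 of 11849 genes, and without treated 3 there were 2, against 727 of 11034. Same-numbered libraries did not deviate together (r from -0.12 to 0.02, against -0.10 to 0.17 for pairs with different numbers). Too few libraries share a number for this to show whether the numbers pair mice. A replicate block over 8 libraries gave 0 of 29 tested members with an unadjusted p under 0.05, against 286 of 10596 genes. With this block Ctsa was at -0.0959 and Ctsf at 0.245.

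Of 384 fold changes of named members under alternatives, 342 kept their direction and 42 reversed, 14 of these when 1 library was left out; Atp6v0e, Atp6v1b2, Atp6v1f and Ctso kept theirs in every setting. With the identifier letters as a covariate, which leaves treated 1 against the controls, Ctse was 0.426, Lamp1 -0.186, Lamp2 0.0807, Ctsb -0.155, Ctss -0.0128, Ctsz -0.146 and Ctsd 0.354. With the monocyte marker level, Atp6v0b was 0.0722, Ctse 0.273, Lamp1 -0.148, Ctsb -0.201, Ctsc -0.115, Ctss -0.0933, Ctsz -0.186, Ctsd 0.0682 and Ctsh 0.0496. With detected genes, Atp6v0b was 0.106, Lamp2 0.367 and Ctsf 0.233. Without control 3 and control 4, Atp6v0b was 0.0241, Lamp2 0.590 and Ctsf 4.65. With the offset, Atp6v0b was 0.202 and Ctse 0.0247, and with limma-voom Lamp2 was 0.0922 and Ctsf 1.67. Leaving out 1 library gave -0.151 to 0.0819 for Atp6v0b, -0.150 to 0.0451 for Ctse, -0.181 to 0.521 for Lamp1 and -0.297 to 0.132 for Lamp2. The cause was not tested. The median over all genes was 0.03, and 0.20 with no filter, 0.16 with the monocyte marker level, 0.11 with the block, 0.10 without control 3 and control 4 and -0.08 with the letters. Low members such as Ctsw and Atp6v0e2 had wide errors (SE 1.94 and 1.53).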
